A study of Mus musculus with 15 samples.

Results

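The 3 muscle and neural microRNAs, miR-206-3p, miR-218-5p and miR-138-5p, were followed through small RNA libraries of mouse mammary cell lines. They are 3 of the 876 miRNA arms that received reads. They were picked from these same libraries because they were present in MM3MG lines and scarce in TUBO cells or in MM3MG-Her2. A read belonged to a member when the insert was 18 to 26 bases long and its first 18 bases equalled the first 18 bases of the annotated arm. By that rule miR-206-3p had 322 reads, miR-218-5p 702 and miR-138-5p 208 over all 15 libraries, from 22, 38 and 38 distinct sequences. The choice rests on the levels in the cell lines, so those levels are given as a description without a test.

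The libraries form 5 groups of 3. TUBO is a breast cancer line taken from primary tumours of Balb-NeuT mice, which carry a Neu (Her2) transgene. It was sampled as exosomes isolated from the culture supernatant, as the supernatant left over from that isolation, and as the cells themselves. MM3MG-Her2 is the MM3MG line after transduction with pLSXN-Neu retroviral particles. MM3MG, its untransduced counterpart, is described as a normal mammary epithelial line of BALB/c origin. All cultures grew in DMEM with 10% FCS without further treatment, and each group is 1 cell line or a fraction of its medium. Whether replicates are separate cultures is not stated, so p-values measure only the spread between these samples, which may be technical.

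MicroRNAs are short RNAs cut from hairpin precursors, and the bases near the 5′ end (the seed) pair with target messages. miR-206 is a skeletal muscle miRNA of the miR-1 family, made next to miR-133b. miR-218 is carried in introns of the Slit2 and Slit3 genes, which encode axon guidance ligands, and is abundant in motor neurons. miR-138 is abundant in brain, where it restrains dendritic spine growth, and it is made from a pair of hairpin genes.

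The mature sequences are shown because the seed and the 3′ end define the members and the read forms described further on. They are written 5′ to 3′ from RefSeq on GRCm38.p6, with the seed (bases 2 to 8) in capitals:
miR-206-3p: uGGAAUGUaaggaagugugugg
miR-218-5p: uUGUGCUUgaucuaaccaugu
miR-138-5p: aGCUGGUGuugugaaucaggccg
The arms are 22, 21 and 23 bases long, and no seed is shared among them. Of 1679 RefSeq mouse arms searched, among which miR-1a-3p and miR-133a-3p were not, 3 carry the miR-206-3p seed GGAAUGU (miR-206-3p, miR-6349 and miR-6382), 2 carry the miR-218-5p seed UGUGCUU (miR-218-5p and miR-7002-3p), and 1 carries the miR-138-5p seed GCUGGUG. All precursor genes lie on the plus strand. The mature miR-206-3p lies at chr1:20679055-20679076, in an exon of the long noncoding RNA Gm28653. Its neighbour Mir133b starts 3687 bases downstream of the end of Mir206, in the same noncoding RNA. miR-218-5p lies at chr5:48223966-48223986 (Mir218-1, an intron of Slit2) and at chr11:35616840-35616860 (Mir218-2, an intron of Slit3). miR-138-5p lies at chr9:122682898-122682920 (Mir138-1, an exon of the transcribed pseudogene Gm47135) and at chr8:94324312-94324334 (Mir138-2, an exon of the long noncoding RNA C78859).

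The libraries held 196152 to 710902 reads and 58947 to 537052 miRNA reads. Reads of miRNAs made up 57.3% to 60.6% of the exosome libraries, 28.1% to 33.2% of the supernatant libraries, 75.5% to 76.5% of the TUBO cell libraries, 49.8% to 54.6% of the MM3MG-Her2 libraries and 72.1% to 78.8% of the MM3MG libraries. Levels below are CPM, the share of the miRNA reads of a library scaled to 1e+06 reads. A group with no read of a member is given the limit that a count of 0 allows, set at 3 reads over the group. That limit is 14.2 CPM in the supernatant and 2.09 CPM in TUBO cells. Intervals and limits cover counting error only, since the reads carry no molecular identifiers. In bulk RNA, fewer cells of a type and less RNA per cell cannot be told apart. The 7 epithelial markers (the miR-200 family, miR-203-3p and miR-205-5p) summed to 25365 to 26645 CPM in TUBO cells, to 11.6 to 39.9 CPM in MM3MG-Her2 and to 25.9 to 44.8 CPM in MM3MG. miR-203-3p and miR-205-5p were at 0 reads in MM3MG-Her2. The 6 mesenchymal and stromal markers (miR-199a-3p, miR-199a-5p, miR-214-3p, miR-143-3p, miR-145a-5p and miR-10b-5p) summed to 47182 to 47308 CPM in TUBO cells, 103779 to 107827 CPM in MM3MG-Her2 and 184834 to 200337 CPM in MM3MG. miR-143-3p made up nearly all of the sum in TUBO cells. The other 5 summed to 216 to 439.9 CPM in TUBO cells, 43192 to 44355 CPM in MM3MG-Her2 and 70928 to 105179 CPM in MM3MG. In the MM3MG lines most of that came from miR-199a-3p, counted jointly with miR-199b-3p. Its means were 41016 CPM in MM3MG-Her2 and 74760 CPM in MM3MG. The means of miR-10b-5p were 135 CPM in MM3MG-Her2 and 9400 CPM in MM3MG. The epithelial label of the MM3MG lines was not borne out by these markers.

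**Figure D1:**
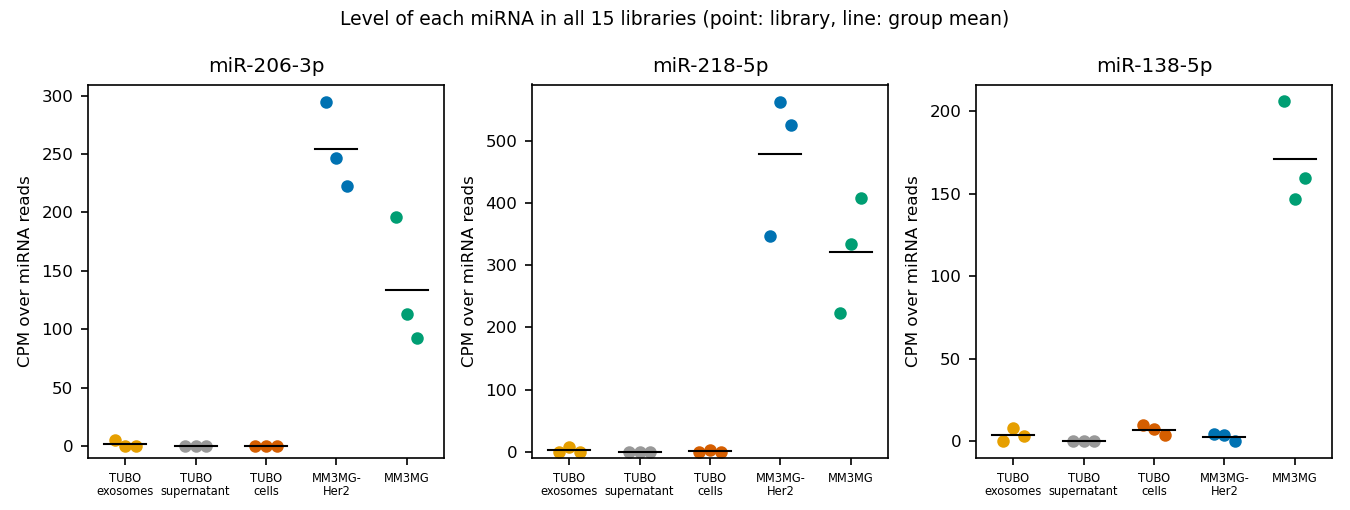
Level in CPM over miRNA reads (linear y axis) of miR-206-3p, miR-218-5p and miR-138-5p in each library (points) with the group mean (line). The MM3MG-Her2 and MM3MG points stand above the TUBO-derived points for miR-206-3p and miR-218-5p, while for miR-138-5p only the 3 MM3MG points, at 147 to 206 CPM, stand clear of the rest.

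miR-206-3p was confined to the MM3MG lines apart from 2 reads in 1 exosome library. MM3MG-Her2 libraries held 68, 64 and 39 reads of it, or 295, 247 and 222 CPM, against 59, 57 and 33 reads in MM3MG libraries, or 196, 113 and 92.4 CPM. The lowest MM3MG-Her2 library was above the highest MM3MG library. The means were 255 ± 36.8 CPM in MM3MG-Her2 and 134 ± 54.8 CPM in MM3MG (SD, n = 3 each), a 1.90-fold higher level in MM3MG-Her2. All 3 TUBO cell libraries and all 3 supernatant libraries held 0 reads, and the exosome libraries held 2, 0 and 0. Against the limit of 3 reads over the group, the level in TUBO cells was at least 122-fold lower than in MM3MG-Her2 and at least 64.2-fold lower than in MM3MG. Without TUBO cells replicate 1 or replicate 3 the limit against MM3MG is at least 41.8-fold or at least 40.2-fold lower, since fewer reads stand behind the 0. Without TUBO cells replicate 1, the comparison with MM3MG-Her2 gives at least 79.5-fold lower, and without replicate 3 at least 76.4-fold lower.

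The gap between MM3MG-Her2 and MM3MG for miR-206-3p moved with the denominator. Over all reads of a library, miR-206-3p stood at 147, 135 and 114 CPM in MM3MG-Her2 and at 141, 88.6 and 72.7 CPM in MM3MG. The groups overlap on that scale, with means of 132 ± 16.4 CPM in MM3MG-Her2 and 101 ± 35.9 CPM in MM3MG (SD, n = 3 each). The scales differ only by the share of miRNA reads in a library. That share was 49.8% to 54.6% in MM3MG-Her2 libraries and 72.1% to 78.8% in MM3MG libraries, and why it differed was not tested.

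miR-218-5p was the most abundant of the 3 in both MM3MG lines. MM3MG-Her2 libraries held 80, 146 and 92 reads, or 347, 562 and 525 CPM, against 67, 168 and 146 reads in MM3MG libraries, or 223, 334 and 409 CPM. The groups overlap, since the lowest MM3MG-Her2 library was below the highest MM3MG library. The means were 478 ± 115 CPM in MM3MG-Her2 and 322 ± 93.6 CPM in MM3MG (SD, n = 3 each), a 1.49-fold difference within the overlap. Over all reads of the library the means were 249.8 ± 69.2 CPM in MM3MG-Her2 and 248 ± 81.5 CPM in MM3MG (SD, n = 3 each). In the TUBO-derived samples miR-218-5p was nearly absent, with 0, 2 and 0 reads in exosomes, 0 in each supernatant library and 0, 1 and 0 reads in TUBO cells. On pooled reads, 1 read in TUBO cells against 318 in MM3MG-Her2 made the level 687-fold lower (exact 95% counting interval 122 to 27211). Against the 381 reads of MM3MG it was 472-fold lower (84.2 to 18682). From the means of CPM it was 574-fold lower than MM3MG-Her2 and 386-fold lower than MM3MG. Without TUBO cells replicate 2, which held the single read, these become at least 165-fold and at least 111.3-fold, and without replicate 1 or replicate 3 they become 383-fold and 258-fold.

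**Figure D2:**
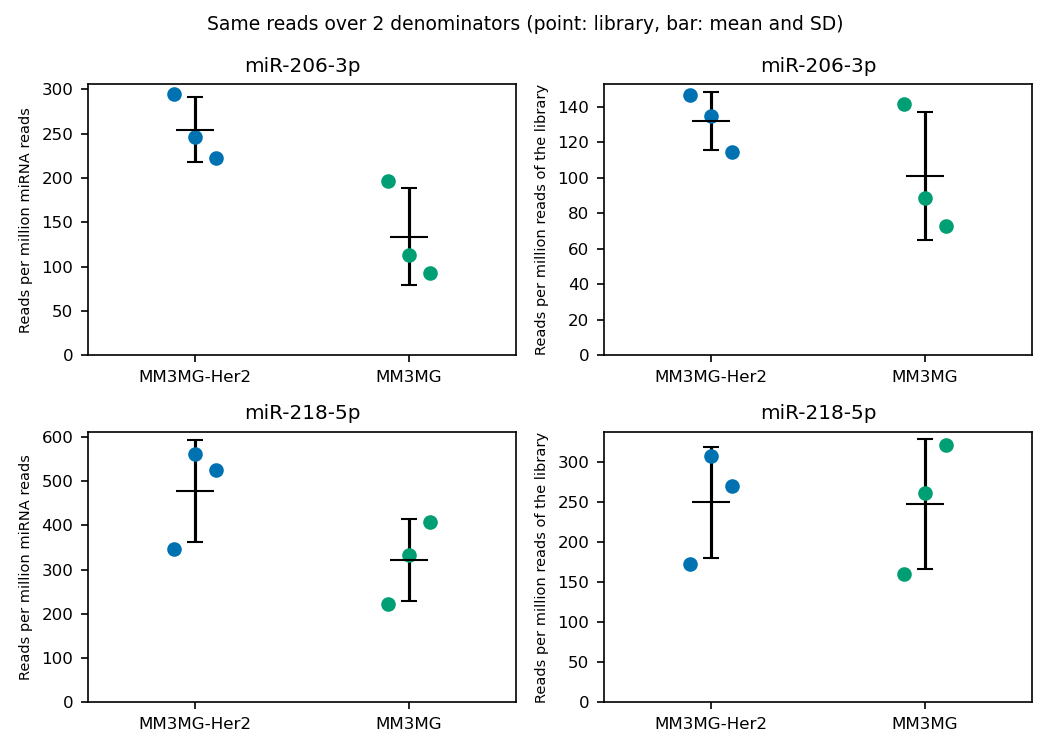
miR-206-3p and miR-218-5p in MM3MG-Her2 (left) and MM3MG (right) as CPM over miRNA reads and as CPM over all reads of the library, with points for libraries and bars for the mean and SD of 3. The miR-206-3p groups are apart on the first scale and overlap on the second; the miR-218-5p groups overlap on both.

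miR-138-5p followed another pattern, present in MM3MG and scarce in MM3MG-Her2 as well as in TUBO cells. MM3MG-Her2 libraries held 1, 1 and 0 reads, or 4.33, 3.85 and 0 CPM, against 62, 74 and 57 reads in MM3MG libraries, or 206, 147 and 160 CPM. Every MM3MG-Her2 library was far below every MM3MG library. The means were 2.73 ± 2.38 CPM in MM3MG-Her2 and 171 ± 31.0 CPM in MM3MG (SD, n = 3 each). On pooled reads (2 against 193) the level was 55.3-fold lower in MM3MG-Her2, with an exact 95% counting interval of 15.1 to 460.1. From the means of CPM it was 62.6-fold lower, and 41.8-fold lower without MM3MG-Her2 replicate 3, the library with no read. The looser assignment used for all arms, which allows uncalled bases and shifted starts, gave 1, 2 and 1 reads in MM3MG-Her2 and 62, 75 and 61 in MM3MG, a 29.6-fold lower level in MM3MG-Her2.

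TUBO cells kept a low level of miR-138-5p. They held 5, 3 and 2 reads, or 9.99, 7.50 and 3.72 CPM, a mean of 7.07 ± 3.16 CPM (SD, n = 3), which was 24.2-fold lower than in MM3MG. The exosome libraries held 0, 2 and 1 reads, and no supernatant library held any. TUBO cells had 10 reads and MM3MG-Her2 had 2, a pooled ratio of 2.32 with an exact 95% counting interval of 0.493 to 21.7. By the looser assignment the means were 7.07 CPM in TUBO cells and 5.91 CPM in MM3MG-Her2. The TUBO cell and MM3MG-Her2 libraries overlap, so no difference between them was detectable at this depth.

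From high to low, miR-206-3p ran MM3MG-Her2, MM3MG, exosomes and then TUBO cells and supernatant at 0. miR-218-5p ran MM3MG-Her2, MM3MG, exosomes, TUBO cells and supernatant, and every pair of neighbours overlap except MM3MG and exosomes. miR-138-5p ran MM3MG, TUBO cells, exosomes, MM3MG-Her2 and supernatant, and below MM3MG every pair of neighbours overlap. The exosomes, the supernatant and the TUBO cells could not be ordered for any member. Their libraries overlap, except that miR-138-5p was above 0 in every TUBO cell library and at 0 in every supernatant library, where the limit of 14.2 CPM lies above the TUBO cell levels. In exosomes against supernatant no member passed the filter on low counts, and both groups lay at or under the limit of 3 reads, so no fold is given; 63.8% of the 243 arms tested were called there.

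Among the 3 members, 2 did not overlap between MM3MG-Her2 and MM3MG, 1 higher and 1 lower, against 66% of the 282 arms tested in the cell libraries, of which 32.3% lay higher and 33.7% lower. In TUBO cells against MM3MG, all 3 lay lower without overlap, against 43.3% of arms in that direction and 81.9% in either. In TUBO cells against MM3MG-Her2, 2 of 3 lay lower without overlap, against 47.5% of arms in that direction and 79.8% in either. These shares describe the background. Since the members were picked on these levels, nothing is read from their counts.

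The 3′ ends of the reads were not used to pick the members. For miR-218-5p they differed between the MM3MG lines. The 2 most frequent reads are shown because their shares differ, followed by an example of a tail and of a longer templated read, with the bases past the annotated end in capitals and T for U, as sequenced:
annotated end: ttgtgcttgatctaaccatgt
1 base longer: ttgtgcttgatctaaccatgtG
2 bases longer, not matching either hairpin: ttgtgcttgatctaaccatgtGA
2 bases longer, matching Mir218-1: ttgtgcttgatctaaccatgtGC
The read that is 22 bases long, with the G that both hairpins encode, made up 56.3%, 65.8% and 53.3% of the miR-218-5p reads in MM3MG-Her2 and 25.4%, 33.3% and 30.1% in MM3MG. Every MM3MG-Her2 library was above every MM3MG library. The means were 58.4% ± 6.52 in MM3MG-Her2 and 29.6% ± 4.01 in MM3MG (SD, n = 3 each), a difference of 28.8 percentage points (exact two-sided permutation test p = 0.1, the smallest that 3 against 3 can give). This form was chosen for a measure after its values had been seen.

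The shares of the forms add up to the whole, so a higher share of that form goes with lower shares of others. Reads that stop at the annotated end made up 17.5%, 17.1% and 16.3% in MM3MG-Her2 against 22.4%, 30.4% and 30.8% in MM3MG. Reads with a 3′ tail that the hairpin does not encode made up 16.3%, 6.85% and 18.5% in MM3MG-Her2 against 34.3%, 19.0% and 24.7% in MM3MG. Neither pair of groups overlaps. The means were 17.0% ± 0.611 in MM3MG-Her2 and 27.9% ± 4.74 in MM3MG for the annotated end, and 13.9% ± 6.17 in MM3MG-Her2 and 26% ± 7.73 in MM3MG for tails (SD, n = 3 each), with an exact two-sided permutation p of 0.1 for each, which is not independent of the result above. Shorter reads made up 7.50%, 4.11% and 9.78% in MM3MG-Her2 and 11.9%, 11.3% and 5.48% in MM3MG, and these groups overlap. Over the reads outside the form with 1 base more, the annotated end made up 40%, 50% and 34.9% in MM3MG-Her2 and 30%, 45.5% and 44.1% in MM3MG. Tails made up 37.1%, 20% and 39.5% of those reads in MM3MG-Her2 and 46%, 28.6% and 35.3% in MM3MG. The groups overlap for both. The tailed reads ended in added A only in 26 reads in MM3MG-Her2 and 44 in MM3MG, and in added T only in 5 reads in MM3MG-Her2 and 16 in MM3MG.

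**Figure D3:**
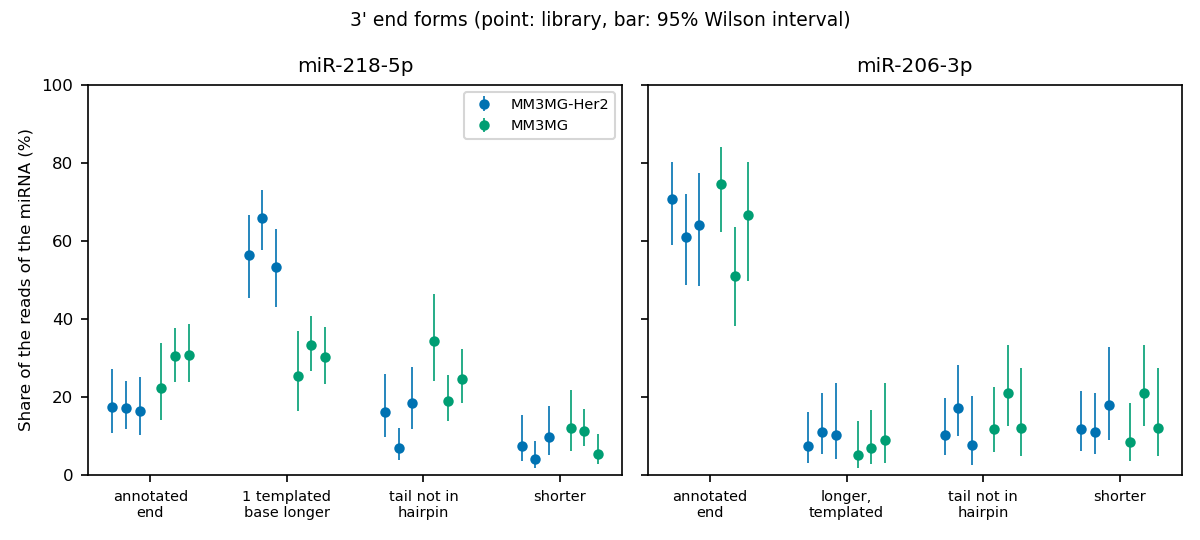
Share of the reads of miR-218-5p and miR-206-3p (y axis, percent) in each 3′ form, per library, for MM3MG-Her2 (left of each pair) and MM3MG (right), with 95% Wilson intervals. The form of miR-218-5p with 1 templated base more lies at 53.3% to 65.8% in MM3MG-Her2 and 25.4% to 33.3% in MM3MG, while the miR-206-3p forms overlap.

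miR-206-3p showed no such separation. Reads at its annotated end made up 70.6%, 60.9% and 64.1% in MM3MG-Her2 and 74.6%, 50.9% and 66.7% in MM3MG. The means were 65.2% ± 4.92 in MM3MG-Her2 and 64.0% ± 12.1 in MM3MG (SD, n = 3 each; exact two-sided permutation p = 1.0), and the difference of 1.17 points turned to -1.52 without MM3MG-Her2 replicate 1 and to -5.41 without MM3MG replicate 2. Its tailed share was 11.7% ± 4.91 in MM3MG-Her2 and 15% ± 5.23 in MM3MG (SD, n = 3 each), and the groups overlap (exact two-sided permutation p = 0.5). miR-138-5p had too few reads in MM3MG-Her2 for such a comparison. In MM3MG its reads were spread over forms, with the annotated end at 12.9%, 28.4% and 22.8%, longer templated ends at 35.5%, 37.8% and 28.1%, and tails at 30.6%, 14.9% and 26.3%.

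Other miRNAs also moved in these measures. Over the 170 arms with at least 10 reads in each of the 6 MM3MG-line libraries, the share of the commonest insert differed without overlap in 53.5% of arms and was higher in MM3MG-Her2 without overlap in 39.4%, and its median difference was 3.80 points. miR-218-5p had the second largest rise of the 170 and miR-206-3p ranked 104. The tailed share differed without overlap in 37.6% of arms and was lower in MM3MG-Her2 without overlap in 25.9%, with a median difference of -1.18 points; counted from the largest rise, miR-218-5p ranked 163 and miR-206-3p ranked 109. Inserts of 20 bases or fewer made up 14.8% to 18% of reads in MM3MG-Her2 and 9.38% to 11.5% in MM3MG, and their part in the 3′ forms was not tested.

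The 5′ ends were nearly fixed. Within 2 bases of the annotated start, miR-218-5p had 0 shifted reads, miR-206-3p had 1 read that began 1 base earlier, and miR-138-5p had 6 reads that began 1 base later.

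Both miR-218-5p and miR-138-5p come from a pair of hairpins with the same mature arm. The arm with the next 5 bases of each hairpin is shown because only the bases in capitals, past the annotated end, can tell the hairpins apart:
Mir218-1: uugugcuugaucuaaccauguGCUUG
Mir218-2: uugugcuugaucuaaccauguGGUGG
Mir138-1: agcugguguugugaaucaggccgUUGCC
Mir138-2: agcugguguugugaaucaggccgACGAG
The miR-218 hairpins first differ at base 23 and the miR-138 hairpins at base 24, counted from the 5′ end of the arm. Reads that reach base 23 as Mir218-1 encodes it numbered 12 in MM3MG-Her2 and 21 in MM3MG, and those that match Mir218-2 numbered 0 in MM3MG-Her2 and 3 in MM3MG. The opposite arm gave a like picture. miR-218-1-3p had 2, 8 and 6 reads in MM3MG-Her2 and 5, 8 and 5 reads in MM3MG, against 0 in every TUBO-derived library, whereas miR-218-2-3p had 0 reads in all 15 libraries.

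For miR-138-5p in MM3MG, 59 reads continued with the base of Mir138-1 and 33 with that of Mir138-2. An added U or A cannot be told from the template at that single base. Through base 25, 9 reads matched Mir138-1 and 2 matched Mir138-2 in MM3MG. The opposite arms were rarer still, with miR-138-1-3p at 0, 1 and 2 reads in MM3MG and miR-138-2-3p at 1 read in TUBO cells. miR-206-5p and both arms of the neighbouring miR-133b had 0 reads in every library. None of these 7 partner arms passed the filter on low counts, so none was tested.

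**Figure D4:**
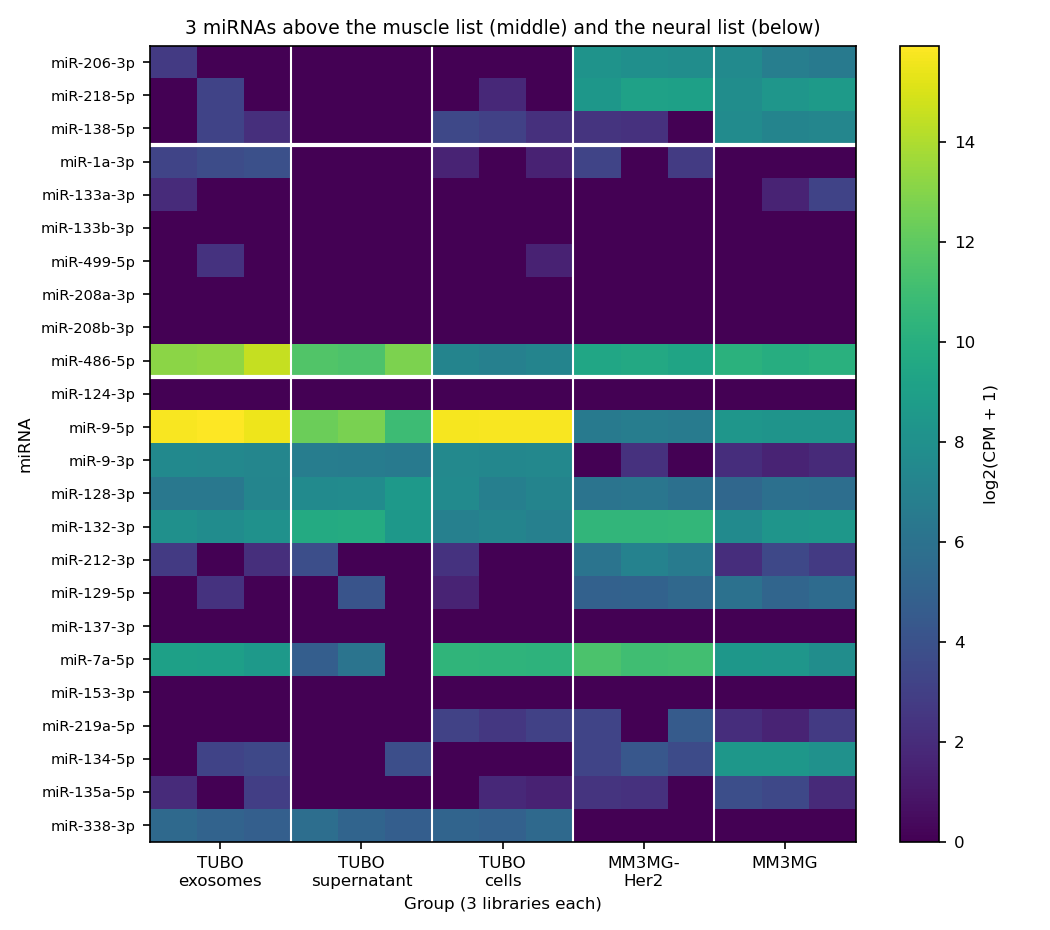
Level as log2(CPM + 1), by colour, of the 3 members (top block), 7 other muscle miRNAs (middle) and 14 other neural miRNAs (bottom) in the 15 libraries, 3 columns per group. Most muscle miRNAs are dark in every group, and miR-9-5p is bright in TUBO cells and exosomes, where the 3 members are dark.

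The defining muscle miRNAs were scarce in the lines that carried miR-206-3p, while miR-486-5p was not. The 6 muscle markers (miR-1a-3p, miR-133a-3p, miR-133b-3p, miR-499-5p, miR-208a-3p and miR-208b-3p) summed to 0 to 8.67 CPM in MM3MG-Her2 and 0 to 8.40 CPM in MM3MG. In MM3MG-Her2 the only one with reads was miR-1a-3p, with 2, 0 and 1, and in MM3MG it was miR-133a-3p, with 0, 1 and 3. miR-1a-3p, the close relative of miR-206-3p, had 3, 3 and 4 reads in exosomes, 0 in each supernatant library and 1, 0 and 1 in TUBO cells. Of the list of 7 other muscle miRNAs, only miR-486-5p, which is also abundant in red blood cells, was tested, as a joint feature with miR-3107-5p. It averaged 14090 CPM in exosomes, 4380 CPM in supernatant, 138 CPM in TUBO cells, 699 CPM in MM3MG-Her2 and 1081 CPM in MM3MG. It fell in all 3 comparisons of cells, by 0.59 on the log2 scale in MM3MG-Her2 against MM3MG, by 2.65 in TUBO cells against MM3MG and by 2.06 in TUBO cells against MM3MG-Her2 (edgeR quasi-likelihood test, largest adjusted p = 0.000833). By that test 62.8% of arms were called in MM3MG-Her2 against MM3MG (31.2% higher, 31.6% lower), 83% in TUBO cells against MM3MG (45% higher, 37.9% lower) and 74.1% in TUBO cells against MM3MG-Her2 (33.3% higher, 40.8% lower).

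The other neural miRNAs went both ways. miR-124-3p, miR-137-3p and miR-153-3p had 0 reads in all 5 groups, and 9 of the 14 on the list were tested. In MM3MG-Her2 against MM3MG, 3 rose and 2 fell, where 31.2% of all arms tested were called higher and 31.6% lower. Leaving out arms with no read in either line, the median log2 fold change was 0.00 over 8 neural miRNAs and 0.04 over 274 arms. miR-132-3p and miR-212-3p, which are made from 1 locus and respond to neuronal activity, rose by 2.40 ± 0.17 and 3.84 ± 0.49 on the log2 scale (SE; adjusted p = 4.11e-11 and 3.27e-07). miR-7a-5p rose by 3.02 ± 0.17 (adjusted p = 9.90e-13). miR-134-5p, a brain miRNA that limits dendritic spines, fell by 4.49 ± 0.34 on the log2 scale (adjusted p = 2.62e-10). It had 2, 5 and 2 reads in MM3MG-Her2 and 102, 171 and 95 in MM3MG, so it was scarce in MM3MG-Her2, as miR-138-5p was. It had 0 reads in all TUBO cell libraries. A fall of that size was not particular to the neural list. Outside it, miR-329-5p and the joint feature of miR-299a-5p and miR-299b-5p had log2 fold changes of -5.77 and -4.48 in MM3MG-Her2 against MM3MG. The genome positions of these arms and of miR-134-5p were not compared. Their falls are therefore not counted as separate events, and a link to neural function was not tested. miR-9-5p, a miRNA of neural progenitors, fell by 1.62 ± 0.15 on the log2 scale (adjusted p = 2.07e-09).

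In TUBO cells against MM3MG, 5 of the 9 neural miRNAs rose and 3 fell, with a median log2 fold change of 1.88 against 0.22 over all arms. Of all arms tested there, 45% were called higher and 37.9% lower. In TUBO cells against MM3MG-Her2, 4 of the 9 rose and 5 fell, with a median of -0.59 against -0.10 over all arms. Of all arms in that comparison, 33.3% were called higher and 40.8% lower. miR-9-5p was among those that rose in both comparisons, where miR-206-3p and miR-218-5p were lower. It averaged 55555 CPM in TUBO cells, 98.6 CPM in MM3MG-Her2 and 311 CPM in MM3MG, and its log2 fold change was 9.40 ± 0.15 against MM3MG-Her2 and 7.79 ± 0.13 against MM3MG (SE; edgeR adjusted p = 1.07e-23 and 4.84e-23). miR-129-5p had 1 read in TUBO cells, 22 in MM3MG-Her2 and 53 in MM3MG, and passed the test as lower in TUBO cells against both lines. Among the others that fell against MM3MG-Her2 were miR-132-3p, miR-212-3p and miR-134-5p, with log2 fold changes of -3.23, -5.63 and -5.23. For miR-134-5p that rests on 0 reads against 9.

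The arms whose levels ran most like each member were ranked by Pearson's r of log2(CPM + 1) over the 15 libraries, among 341 arms with a mean of at least 10 CPM. The libraries form 5 groups, so r mostly reflects group means, and no p is given. For miR-206-3p the nearest were miR-193a-3p, miR-224-5p and the joint feature of the miR-669a-1-3p copies, each at r = 0.98. All 3 had no reads in the TUBO-derived groups. For miR-218-5p the nearest was miR-344b-3p at r = 0.99, with means of 625 CPM in MM3MG-Her2 and 505 CPM in MM3MG. The nearest to miR-138-5p were miR-329-5p at r = 0.88, with means of 1.45 CPM in MM3MG-Her2 and 105 CPM in MM3MG, and miR-299a-5p with miR-299b-5p at r = 0.86, with 8.19 CPM in MM3MG-Her2 and 211 CPM in MM3MG. Next came miR-143-3p at r = 0.83 and miR-22-3p at r = 0.82. Both had many reads in every group, with means of 46944 CPM and 7729 CPM in TUBO cells, where miR-138-5p was scarce. At rank 5 was miR-341-3p, at r = 0.80, with 8.80 CPM in MM3MG-Her2 and 133 CPM in MM3MG. Whether arms near the same member share a locus was not examined, so they are not counted as independent. Among the members, r was 0.95 between miR-206-3p and miR-218-5p, 0.44 between miR-206-3p and miR-138-5p, and 0.54 between miR-218-5p and miR-138-5p.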

How the data were processed

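Total RNA had been isolated with TRIzol, ligated to adapters, reverse transcribed, amplified by PCR and cut from a gel at miRNA size, per the labels' protocols. The deposited values are raw read counts per distinct insert sequence, 1 set per library, and no normalisation by the authors is recorded; the trimming tool is not stated there.

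Assignment took inserts of 18 to 26 bases and looked them up in the 1178 named hairpins of GENCODE M21 (GRCm38) by their first 18 bases, with up to 2 differences after them, and put on an arm with RNAfold 2.7.2. Arms sharing at least 50% of reads were merged, which gave 876 arms with 4370123 of 6892924 reads. Member reads were counted by exact match. CPM used the miRNA reads of a library.

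Arms were tested with edgeR 4.0.16 (quasi-likelihood, TMM, filterByExpr, Benjamini-Hochberg, threshold 0.05, R 4.3.3) in 9 cell libraries or 9 TUBO-derived libraries, and checked on simulated data. DESeq2 1.42.0, other scaling, filters, matching rules, denominators and left-out replicates were alternatives. Shares of read forms were compared by exact permutation tests. Replicates of a group differed by more than sampling noise (chi-square per degree of freedom of at least 4.80).

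Named miRNAs are the members, their partner arms, lists of muscle and neural miRNAs and cell type markers, and the arms most like a member by Pearson's r. The members and lists were chosen with earlier results of these data known.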

Additional observations from a re-analysis of the deposited data

How the results depend on the processing

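Of 291 alternative values for 27 results, 254 counted as unchanged, 34 moved further and 3 changed sign. Unchanged meant within the spread between replicates for ratios and within 1.5 times for counts. For shares of read forms it meant only that the difference kept its sign, whatever its size. No value was computed for the members in exosomes against supernatant, where reads lay at or under the limit of 3. The miR-206-3p level in TUBO cells was at least 83.1-fold lower than in MM3MG-Her2 over all reads and at least 101-fold lower with TMM scaling; leaving out a library gave at least 76.4-fold to 130-fold, and 40.2-fold to 74.1-fold against MM3MG. For miR-218-5p, TUBO cells were 394-fold lower than MM3MG-Her2 over all reads, at least 224-fold lower with a 20-base match and at least 165-fold (without TUBO cells replicate 2, the library with the single read) to 653-fold lower with a library left out. Against MM3MG the values were at least 149-fold with the 20-base match and at least 111.3-fold (without that library) to 446-fold. miR-138-5p in MM3MG-Her2 against MM3MG was 91.3-fold lower over all reads and 41.8-fold to 88.7-fold lower with a library left out. With reads as assigned for all arms, an alternative chosen after seeing the data, it was 29.6-fold lower, and TUBO cells against MM3MG-Her2 was 1.20-fold higher. The miR-206-3p annotated-end difference turned to -1.52 points without MM3MG-Her2 replicate 1 and -5.41 points without MM3MG replicate 2 (range -5.41 to 6.44). The miR-218-5p annotated-end difference became 2.87 points when each distinct sequence counted once. Each of these forms is 1 sequence, so that setting only reflects the number of distinct sequences per library. The form 1 base longer kept 25.1 to 31.4 points with a library left out, and 2.87 points when each distinct sequence counted once. Of the partner arms, 1 was called lower in TUBO cells against each MM3MG line with no filter; with a library left out 1 was called against MM3MG, and 0 to 1 against MM3MG-Her2. The cause of the other moves was not tested.

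Replicate numbers did not pair the samples: correlations of same-numbered deviations ran from -0.10 to 0.10. With the replicate number as a block, 178 arms were called in MM3MG-Her2 against MM3MG, 232 in TUBO cells against MM3MG, 209 in TUBO cells against MM3MG-Her2 and 155 in exosomes against supernatant, against 177, 234, 209 and 155 without it. Calls among the muscle, neural and partner lists kept their counts (1, 5 and 0; 1, 8 and 0; 1, 9 and 0). The block was not applied to CPM ratios and shares, which come from no fit.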
